A study of Mus musculus with 15 samples.

Results

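Prostaglandin synthesis and PGE2 signalling were followed through 10 genes, taken by symbol from the 54532 genes of the count table. They comprise the cyclooxygenases Ptgs1 and Ptgs2, the terminal synthases Ptges, Ptgds and Hpgds, the degrading enzyme Hpgd, and the PGE2 receptors Ptger1, Ptger2, Ptger3 and Ptger4. All 10 were found once in the table and all 10 passed the filter on low counts. The measurements come from poly-A RNA sequencing of the ipsilateral basal ganglia of 15 mice labelled WT, with 1 library per mouse and 5 mice per group. Sham mice and mice with intracerebral haemorrhage (ICH) were gavaged with distilled water. The third group had ICH and was gavaged once daily for 3 days with Nao Yi Kang decoction (NYKD), a herbal preparation, at 5.79 g/kg. Brains were taken on day 3 after perfusion with saline. The labels do not state strain, age, sex or how the haemorrhage was made.

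Prostaglandins are short-lived lipid signals made from arachidonic acid. A phospholipase frees the acid from membranes, a cyclooxygenase turns it into PGH2, and a terminal synthase fixes which prostaglandin is formed. Ptgs1 encodes COX-1, the form made constitutively and, in the mouse brain, mainly by microglia. Ptgs2 encodes COX-2, which neurons make in response to activity and which inflammatory stimuli induce in endothelial and myeloid cells. The cell types that yielded the RNA were not separated. In such bulk tissue, a change in the number of cells of a type and a change in RNA per cell cannot be told apart.

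Libraries held 13539203 to 19909140 counts. The 10 genes span a wide range of depth within these totals, from 7 counts for the scarcest receptors in some libraries to 11070 for Ptgds. ICH replicate 4 stood apart. Its summed level of 7 neutrophil markers was 539 CPM (counts per mega-count of TMM-scaled library size), against 45.4 to 55.8 in the other ICH libraries and 8.48 to 25.1 in sham. Its sum of 7 homeostatic microglia markers was 271 CPM against 843 to 1127 in the other ICH libraries, and its sum of 8 mature oligodendrocyte markers was 2407 against 5954 to 9596. Where a value named below rests on it, the value without it is also given. Markers of neighbouring tissue and of the striatum varied as well: 6 choroid plexus markers, led by Ttr, summed to 16.7 to 5848 CPM after ICH and 72.9 to 2846 in sham, and 8 striatal projection neuron markers to 129 to 1638 CPM with NYKD and 763 to 4759 in sham. The labelled tissue was thus represented in every library by striatal markers, to very different extents.

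In the comparison of ICH with sham, which asks what the haemorrhage changed, 6 of the 10 genes rose and 0 fell. The risers were Ptgs1, Ptgs2, Ptges, Hpgds, Hpgd and Ptger4. Of all 18052 tested genes, 12.4% rose and 4.58% fell by the same call, an adjusted p under 0.05. In NYKD against sham, 5 of the 10 rose and 0 fell, against 15.3% and 8.08% of all genes. In NYKD against ICH, 1 of the 10 rose, Ptger3, and 0 fell, against 1.19% and 2.27% of all genes. At an unadjusted p under 0.05, Ptger3 was also lower and Ptger2 higher after ICH, and Ptger1 was lower in NYKD against ICH. By the same measure Ptgs2, Ptger2 and Ptger3 were higher in NYKD against sham. An unadjusted p under 0.05 was common among the 18052 tested genes. It was seen for 5617 in ICH against sham, 4185 in NYKD against ICH and 6618 in NYKD against sham. After adjustment, DESeq2 called Ptger3 lower after ICH, which limma-voom did not, and neither called Ptger1. The 2 comparisons with sham share their 5 sham libraries, so their values are set side by side and not counted as separate evidence. The ICH count ran from 3 to 7 as each library was left out, with the lowest counts without sham replicate 3 or sham replicate 5. The single NYKD against ICH call was lost in 8 of the 15 omissions.

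**Figure D1:**
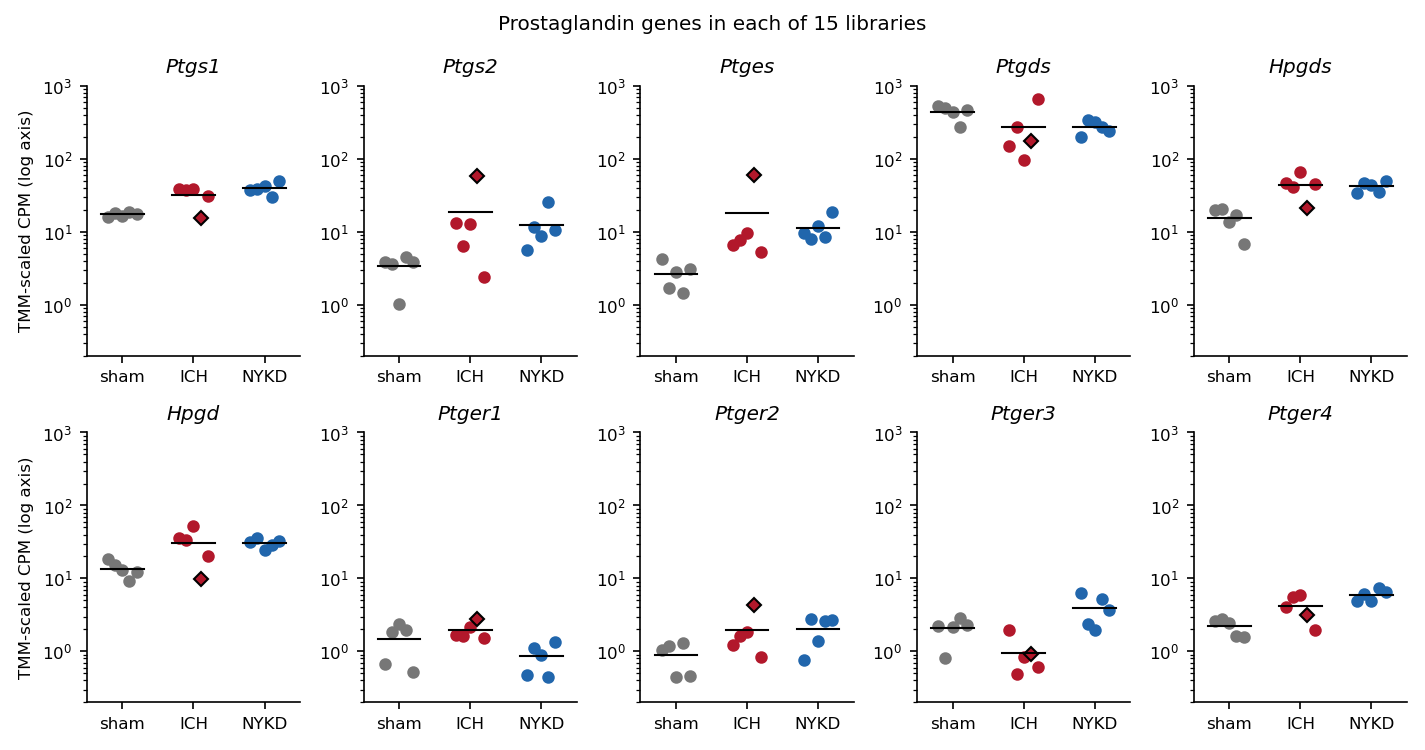
TMM-scaled CPM (log axis) of each of the 10 genes in each of 15 libraries, by group; horizontal lines are means over 5 libraries and the outlined diamond is ICH replicate 4. Ptgs2 and Ptges were highest of all libraries in ICH replicate 4, at 59.0 and 60.4 CPM, where Ptgs1 was lowest, at 15.5.

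**Figure D2:**
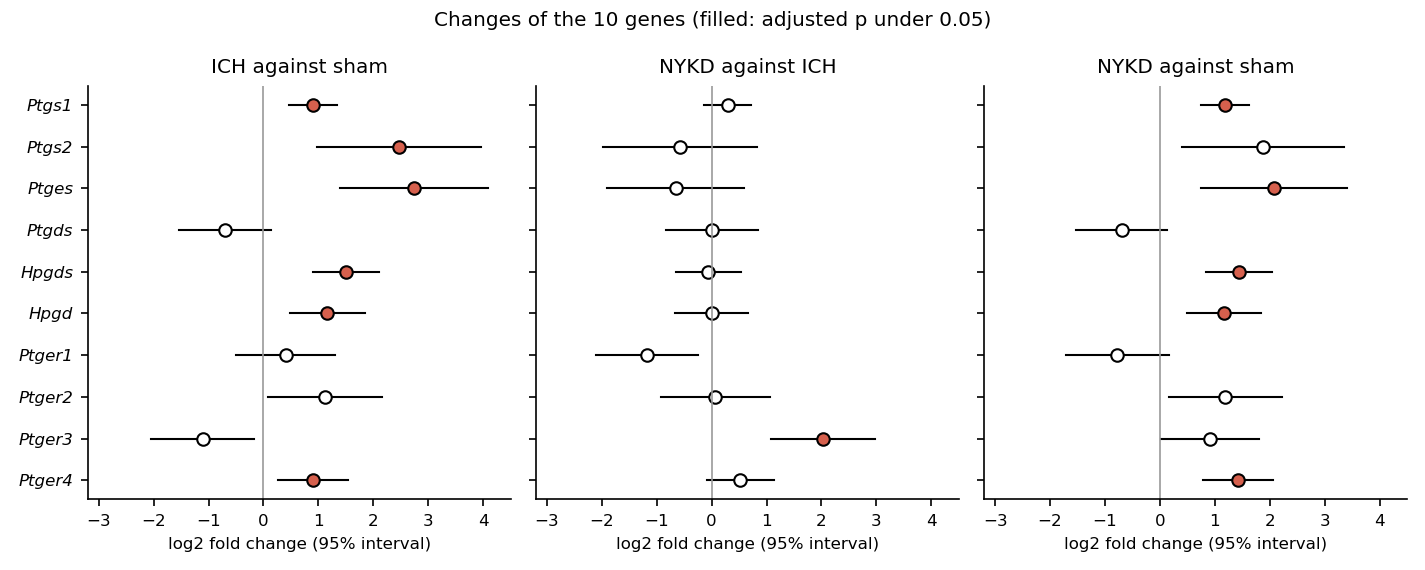
Log2 fold changes of the 10 genes in the 3 comparisons, with 95% intervals from the edgeR fit; filled points passed an adjusted p of 0.05. After ICH 6 genes passed, in NYKD against ICH only Ptger3 did, and in NYKD against sham 5 did.

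The promoters of both cyclooxygenases and of Ptges are shown first, because Ptgs2 and Ptges had the largest log2 changes with all libraries and Ptgs1 is the constitutive counterpart of Ptgs2. Without ICH replicate 4, Hpgds had the largest after ICH. Each window runs from 250 bases before the annotated RefSeq start to 50 bases from it on (GRCm38.p6). They are printed in the sense of the gene. The windows are chr1:150099781-150100080 on the plus strand for Ptgs2, chr2:30903248-30903547 on the minus strand for Ptges and chr2:36230176-36230475 on the plus strand for Ptgs1. Capitals mark matches, on either strand, to any of 8 motifs.
Ptgs2: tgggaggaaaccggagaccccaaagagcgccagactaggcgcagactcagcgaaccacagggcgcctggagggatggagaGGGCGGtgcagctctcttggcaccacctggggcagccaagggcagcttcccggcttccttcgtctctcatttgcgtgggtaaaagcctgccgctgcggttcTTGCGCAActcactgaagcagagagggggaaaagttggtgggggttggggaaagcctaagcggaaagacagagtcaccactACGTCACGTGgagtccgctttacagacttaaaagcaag
Ptges: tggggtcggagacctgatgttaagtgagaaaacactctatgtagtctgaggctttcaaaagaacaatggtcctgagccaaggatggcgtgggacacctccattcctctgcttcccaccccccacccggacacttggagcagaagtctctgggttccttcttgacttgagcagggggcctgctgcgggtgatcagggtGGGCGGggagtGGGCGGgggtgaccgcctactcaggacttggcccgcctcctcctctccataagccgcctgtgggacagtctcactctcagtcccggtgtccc
Ptgs1: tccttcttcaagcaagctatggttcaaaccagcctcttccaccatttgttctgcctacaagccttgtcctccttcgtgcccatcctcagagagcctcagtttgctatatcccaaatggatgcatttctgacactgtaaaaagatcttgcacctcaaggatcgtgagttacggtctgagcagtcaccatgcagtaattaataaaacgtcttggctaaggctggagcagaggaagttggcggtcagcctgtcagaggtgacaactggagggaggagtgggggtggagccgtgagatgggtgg
In the Ptgs2 window the capitals mark a GC box (GGGCGG), the C/EBP palindrome TTGCGCAA, and a cyclic AMP response half-site (ACGTCA) that overlaps an E-box (CACGTG) by its last bases. The palindrome is found in 0.184% of the 32544 windows of the same length, the half-site in 7.55%, the E-box in 7.17% and the GC box in 35.9%. The Ptges window held 2 GC boxes and no other match. The Ptgs1 window held none of the 8 motifs, which also included the TATA box TATAAA (13.6% of windows), AP-1 as TGANTCA (7.79%), and the kappa-B and Egr consensus motifs by name (8.49% and 3.5%). These are letter matches and not measured binding.

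The cyclooxygenases both rose after ICH. Both were above every sham library in ICH replicates 1, 2 and 3, and they parted in replicates 4 and 5. Ptgs1 (ENSMUSG00000047250, mm10 chromosome 2, 36230426 to 36252272, plus strand) stood at 16.0, 18.4, 16.6, 18.8 and 17.4 CPM in sham replicates 1 to 5, and at 38.7, 38.2, 39.0, 15.5 and 30.8 CPM in ICH replicates 1 to 5. It was thus above every sham library in 4 ICH libraries and below every sham library in ICH replicate 4. The group means were 17.4 ± 1.19 and 32.4 ± 10.0 CPM (SD, n = 5 each), a log2 fold change of 0.90 ± 0.21 (SE, adjusted p = 0.00671), and without ICH replicate 4 it was 1.07 ± 0.14 (adjusted p = 0.000104). With NYKD the 5 libraries read 37.5, 38.5, 42.9, 30.0 and 49.7 CPM, all above sham (log2 fold change 1.19 ± 0.21, adjusted p = 0.000616). Against ICH the NYKD level was not separable, at a log2 difference of 0.29 (95% interval from -0.14 to 0.72, adjusted p = 0.409). After removal of group means, Ptgs1 correlated with the homeostatic microglia marker sum at r = 0.97 over 15 libraries and 0.86 over 14 without ICH replicate 4. The part of microglial content in its rise was not tested.

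Ptgs2 (ENSMUSG00000032487, chromosome 1, 150100031 to 150108227, plus strand) read 3.88, 3.66, 1.02, 4.47 and 3.89 CPM in sham, 13.4, 6.40, 12.7, 59.0 and 2.42 CPM in ICH, and 5.60, 11.6, 8.71, 25.9 and 10.7 CPM with NYKD. After ICH, 4 libraries lay above all sham libraries, and ICH replicate 5 lay below 4 of them. The log2 fold change was 2.47 ± 0.70 (adjusted p = 0.0261). It dropped to 1.37 ± 0.52 without ICH replicate 4 and lost its call (adjusted p = 0.0797), as it did without sham replicate 2, 3 or 5. All 5 NYKD libraries were above all sham libraries, yet the change missed the threshold at 1.88 ± 0.69 (adjusted p = 0.0619). Of the 8 alternative settings other than omissions, 3 called this change. It passed without ICH replicate 4 (1.89, adjusted p = 0.0122) and also without ICH replicate 5, libraries that enter this comparison only through the shared scaling and estimate of the spread. Between NYKD and ICH the log2 difference was -0.58 with a 95% interval from -1.99 to 0.82 (adjusted p = 0.631), and it was 0.52 without ICH replicate 4.

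Set on a per-length scale, Ptgs1 mRNA was the larger part of the cyclooxygenase pool in every library but that one. Ptgs2 made up 4.98% to 17.1% of the summed CPM per kb of both genes in sham (mean 13.8% ± 5.06). It made up 22.7%, 12.5%, 21.6%, 76.3% and 6.26% in ICH replicates 1 to 5, and 11.2% to 42.3% with NYKD (mean 20.8% ± 12.4). The ICH mean was 27.9% ± 27.9, and 15.8% without ICH replicate 4. These shares are a description and carry no test.

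**Figure D3:**
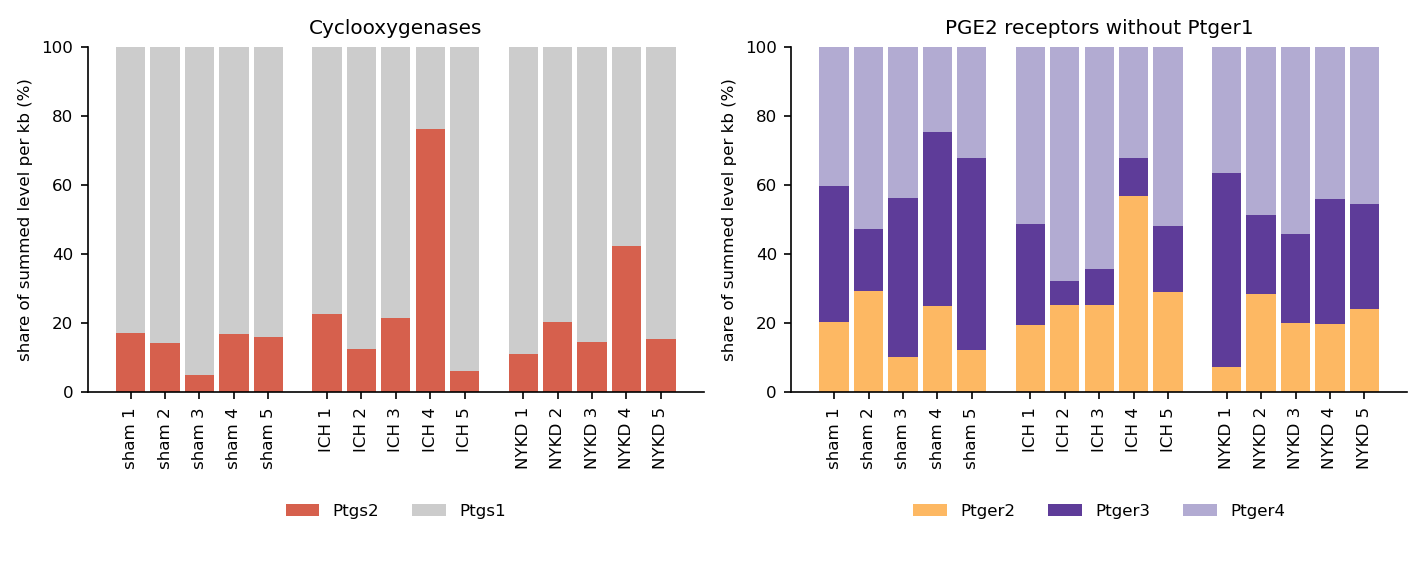
Shares (%) of the summed CPM per kb of exon in each library, for Ptgs1 and Ptgs2 (left) and for the receptors Ptger2, Ptger3 and Ptger4 (right). Ptgs2 exceeds Ptgs1 only in ICH replicate 4 (76.3%), and the Ptger3 share is 6.88% to 29.1% after ICH against 17.9% to 55.7% in sham.

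Among the terminal synthases, Ptges, which encodes the inducible microsomal PGE2 synthase that works with COX-2, rose most with all libraries, and Hpgds rose most without ICH replicate 4. Ptges (ENSMUSG00000050737, chromosome 2, 30889471 to 30929863, minus strand) stood at 4.32, 1.71, 2.82, 1.45 and 3.08 CPM in sham and at 6.64, 7.79, 9.61, 60.4 and 5.33 CPM after ICH. Every ICH library exceeded every sham library, and ICH replicate 4 exceeded the other ICH libraries several-fold. The log2 fold change was 2.74 ± 0.64 (adjusted p = 0.00791) with that library and 1.45 ± 0.33 (adjusted p = 0.00599) without it. The call held in all 15 omissions of a library, with adjusted p up to 0.0243. With NYKD the libraries read 9.79, 7.89, 11.9, 8.46 and 18.8 CPM, again all above sham (2.08 ± 0.62, adjusted p = 0.0255). That call was lost without sham replicate 2, 3 or 4 or NYKD replicate 5 (adjusted p up to 0.0695). Against ICH the log2 difference was -0.65 with all libraries and 0.64 without ICH replicate 4, and neither passed (adjusted p = 0.535 and 0.297).

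Hpgds encodes the haematopoietic PGD2 synthase, which microglia, mast cells and other myeloid cells make. It (ENSMUSG00000029919, chromosome 6, 65117293 to 65144908, minus strand) had the smallest p of the 10 genes after ICH. Sham libraries read 19.8, 20.5, 13.9, 16.8 and 6.80 CPM and ICH libraries 46.4, 41.5, 65.5, 21.1 and 45.8 CPM, without overlap although ICH replicate 4 was only just above sham. Its log2 fold change was 1.50 ± 0.29 (adjusted p = 0.00202), and 1.68 ± 0.25 without ICH replicate 4. NYKD libraries ran from 34.6 to 50.3 CPM (1.44 ± 0.29 against sham, adjusted p = 0.00183), and the log2 difference from ICH was -0.06 with an interval from -0.65 to 0.53. Of mast cell markers, 5 together summed to at most 0.863 CPM in any library. The microglia marker sum correlated with Hpgds at r = 0.73 over 15 libraries and 0.54 over 14, the oligodendrocyte sum at 0.80 and 0.67, and the neutrophil sum at -0.24 and 0.96. A single marker, Csf3r, led the neutrophil sum, at 6.51 to 23.3 CPM in sham where the sum was 8.48 to 25.1. After ICH it stood at 35.5 to 120 CPM where the sum was 45.4 to 539. With NYKD it stood at 23.0 to 45.8 CPM where the sum was 41.3 to 70.9. The part of the cell types named here in the rise was not tested.

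Ptgds encodes the lipocalin-type PGD2 synthase of leptomeninges, choroid plexus and oligodendrocytes, and was by far the most abundant of the 10 genes. Per kb of exon it ranked above 99.5% of tested genes in sham. It (ENSMUSG00000015090, chromosome 2, 25466709 to 25470046, minus strand) read 540, 504, 440, 277 and 468 CPM in sham and 152, 271, 96.2, 177 and 671 CPM after ICH. Thus 4 ICH libraries were below every sham library, while ICH replicate 5 was above every one. The mean fell short of a call, at -0.71 ± 0.39 on the log2 scale (adjusted p = 0.24), that became -1.36 (adjusted p = 0.00317) without ICH replicate 5. That library also had the highest choroid plexus marker sum, 5848 CPM, and Ptgds correlated with this sum at r = 0.57 over 15 libraries and 0.58 over 14 without ICH replicate 4. With the sum of 8 leptomeningeal and fibroblast markers r was -0.50 and -0.58, and with the oligodendrocyte sum 0.09 and -0.03. The part of these tissues in its level was not tested. With NYKD the 5 libraries were tighter, from 199 to 337 CPM, and differed from sham by -0.70 ± 0.39 on the log2 scale (adjusted p = 0.214). Of the 8 alternative settings other than omissions, 1 called this difference. Of the 2 PGD2 synthases, then, Hpgds rose and Ptgds had no call in the reported fit of all libraries.

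Hpgd encodes 15-hydroxyprostaglandin dehydrogenase, which inactivates PGE2 and other prostaglandins. It (ENSMUSG00000031613, chromosome 8, 56294585 to 56321043, plus strand) rose after ICH. Sham libraries read 18.3, 15.3, 13, 9.34 and 12.2 CPM, ICH libraries 35.9, 34.1, 52.6, 9.75 and 20.2 CPM, and NYKD libraries 31.1, 36.3, 24.4, 28.6 and 32.7 CPM. ICH replicate 4 was at sham level and the other 4 ICH libraries above it. Its change on the log2 scale was 1.16 ± 0.32 after ICH (adjusted p = 0.0205), 1.39 ± 0.24 without ICH replicate 4 (adjusted p = 0.000747), and 1.17 ± 0.32 with NYKD against sham (adjusted p = 0.0156). The ICH call was lost without sham replicate 3, 4 or 5 or ICH replicate 3 (adjusted p up to 0.0707). NYKD and ICH did not separate (0.00, interval from -0.66 to 0.67). Hpgd correlated with the mature oligodendrocyte marker sum at r = 0.87 over 15 libraries and 0.67 over 14, and with thalamic markers, a list chosen after the data were seen, at 0.79 and 0.75. Their part in its level was not tested.

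The PGE2 receptors were all scarce, with 7 to 116 counts per library, and differed in how they moved. Receptors EP2 and EP4 raise cyclic AMP, EP3 lowers it, and EP1 acts through calcium. Ptger4, the EP4 gene (ENSMUSG00000039942, chromosome 15, 5206661 to 5244187, minus strand), read 2.65, 2.74, 2.43, 1.64 and 1.57 CPM in sham, 4.09, 5.55, 5.96, 3.11 and 1.94 CPM after ICH and 4.84, 6.04, 4.87, 7.43 and 6.52 CPM with NYKD. NYKD libraries were all above sham, and ICH replicate 5 lay within the sham range. Ptger4 changed on the log2 scale by 1.42 ± 0.30 in NYKD against sham (adjusted p = 0.0026), a call that held in all 15 omissions of a library. After ICH it was 0.90 ± 0.30 (adjusted p = 0.0469), a call so close to the threshold that 13 of the 15 omissions lost it (adjusted p up to 0.136). With a replicate block the ICH value was 0.87 (adjusted p = 0.0861). NYKD against ICH gave 0.52 (interval from -0.09 to 1.14, adjusted p = 0.294). Exons of Ptger4 share 82 bases, 1.23% of its exon length, with Ttc33 on the opposite strand. They share 1015 bases, 15.3%, with the pseudogene Gm15937, also on the opposite strand. Over the 15 libraries Ttc33 held 9158 counts and Gm15937 held 3.

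Ptger3, the EP3 gene (ENSMUSG00000040016, chromosome 3, 157566892 to 157645888, plus strand), was the gene that differed between NYKD and ICH. It stood at 2.22, 0.80, 2.18, 2.89 and 2.32 CPM in sham, at 1.98, 0.48, 0.83, 0.92 and 0.61 CPM after ICH, and at 6.37, 2.41, 1.99, 5.19 and 3.70 CPM with NYKD. Every NYKD library was above every ICH library, by little where NYKD replicate 3 met ICH replicate 1. In counts these groups ran from 8 to 31 after ICH and from 31 to 108 with NYKD. The log2 fold change of NYKD against ICH was 2.03 ± 0.45 (adjusted p = 0.0319), between 1.78 and 2.47 with each library of the 2 groups left out. The adjusted p rose above 0.05 in 8 of those 10 omissions, up to 0.0877, and was 0.0712 with a replicate block. Without ICH replicate 4 it was 0.0621 at a log2 fold change of 2.02. ICH against sham gave -1.11 ± 0.44 (adjusted p = 0.0967) and NYKD against sham 0.92 ± 0.42 (adjusted p = 0.127), so neither departure from sham passed. The first passed with a replicate block (-1.17, adjusted p = 0.0448) and without ICH replicate 1 (-1.55, adjusted p = 0.0258). Striatal projection neuron markers, at 601 to 3721 CPM after ICH and 129 to 1638 CPM with NYKD, moved the other way, and their sum correlated with Ptger3 at r = -0.34 within groups. The sum of 5 cortical excitatory neuron markers, a list chosen after the data were seen, ran from 23.0 to 366 CPM after ICH and 60.8 to 608 CPM with NYKD and correlated with Ptger3 at r = 0.52. The part of dissected region in the Ptger3 difference was not tested.

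Ptger2, the EP2 gene (ENSMUSG00000037759, chromosome 14, 44988195 to 45003820, plus strand), had no call in any comparison. It averaged 0.895 ± 0.412 CPM in sham, 1.97 ± 1.36 after ICH and 2.06 ± 0.914 with NYKD. Its highest library was again ICH replicate 4, at 4.31 CPM against 0.848 to 1.83 in the other ICH libraries. The log2 fold change after ICH was 1.12 ± 0.49 (adjusted p = 0.126), and 0.62 without that library. Ptger1, the EP1 gene (ENSMUSG00000019464, chromosome 8, 83666678 to 83672753, plus strand), read 1.51 to 2.76 CPM after ICH and 0.448 to 1.35 CPM with NYKD, without overlap. The log2 fold change of -1.18 ± 0.44 did not pass (adjusted p = 0.125). Ptger1 counts are treated as uncertain. On the scale of all genes, non-overlap upward was seen for 2 of the 10 in ICH against sham (8.03% of all genes) and 6 of the 10 in NYKD against sham (13.9%). In NYKD against ICH it was seen upward for Ptger3 (2.55% of all genes) and downward for Ptger1 (5.25%).

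The receptor pool per kb is given without Ptger1. Ptger3 made up 41.8% ± 14.6 of Ptger2 to Ptger4 in sham, 15.3% ± 8.89 after ICH and 34.2% ± 13.3 with NYKD (n = 5 each). Ptger4 made up 38.7% ± 10.8, 53.5% ± 14 and 45.8% ± 6.48, and Ptger2 19.5% ± 8.20, 31.2% ± 14.7 and 20.04% ± 7.92. In ICH replicate 4, Ptger2 held 56.9% of the pool, against 19.5% to 29.1% in the other ICH libraries. Single libraries ranged widely within each group, so these shares are given without a test.

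**Figure D4:**
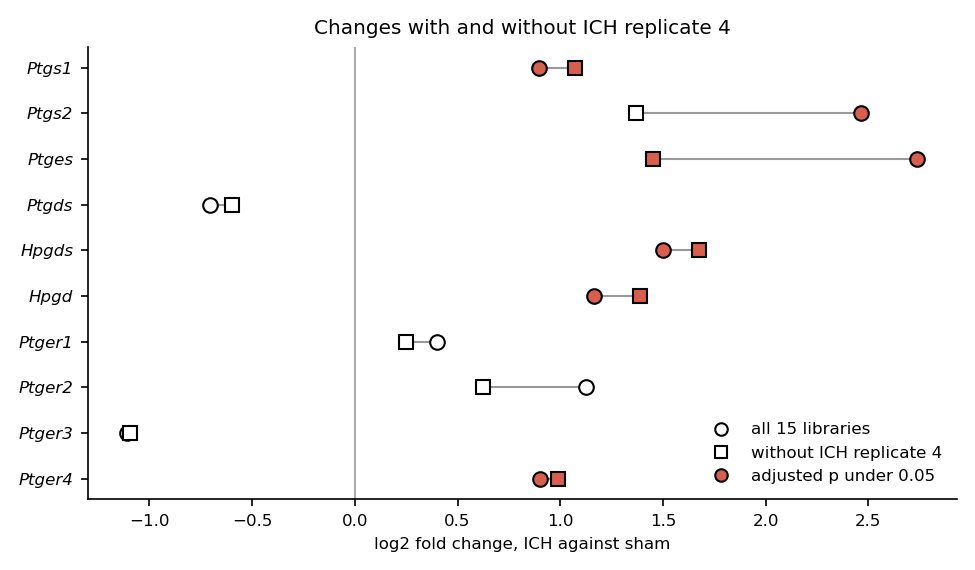
Log2 fold changes in ICH against sham with all 15 libraries (circles) and without ICH replicate 4 (squares); filled symbols passed an adjusted p of 0.05. Ptgs2 moves from 2.47 to 1.37 and Ptges from 2.74 to 1.45, while Ptgs1, Hpgds, Hpgd and Ptger4 move slightly upward.

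Across libraries, with group means removed, some of the genes varied together, and several of these correlations shrank without ICH replicate 4. Ptgs1, Hpgds and Hpgd varied together, with r from 0.63 to 0.74 over 15 libraries. Ptgs2 varied with Ptger2 at r = 0.79 and with Ptges at r = 0.57. Between the cyclooxygenases r was -0.54. Several of these values rested on ICH replicate 4: over the other 14 libraries Ptgs2 and Ptges stood at r = 0.01, the cyclooxygenases at 0.10 and the 3 pairs of Ptgs1, Hpgds and Hpgd at 0.21 to 0.38, while Ptgs2 with Ptger2 was at 0.67 and Hpgd with Ptger4 at 0.81. The libraries differed in composition and depth, which bear on all genes of a library at once, and the correlations are descriptive. Of 12270 genes compared, the 3 most like Ptges over 15 libraries were Pygl, which encodes glycogen phosphorylase of the liver type (r = 0.95, Spearman's rho 0.93), Ier3 (0.92 and 0.71) and Slpi, a leukocyte protease inhibitor gene (0.90 and 0.71). Without ICH replicate 4 these stood at 0.85, 0.69 and 0.53. The 3 most like Ptgs2 were Supv3l1 (0.86 and 0.83), Clec4e, a myeloid lectin receptor gene (0.83 and 0.65), and Resf1 (0.82 and 0.58), with r of 0.73, 0.73 and 0.63 without ICH replicate 4. Those most like Ptgds were Sult1a1 (0.88 and 0.80), Klf15 (0.88 and 0.61) and Fn3k (0.87 and 0.70), with r of 0.90, 0.90 and 0.89 without it.

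**Figure D5:**
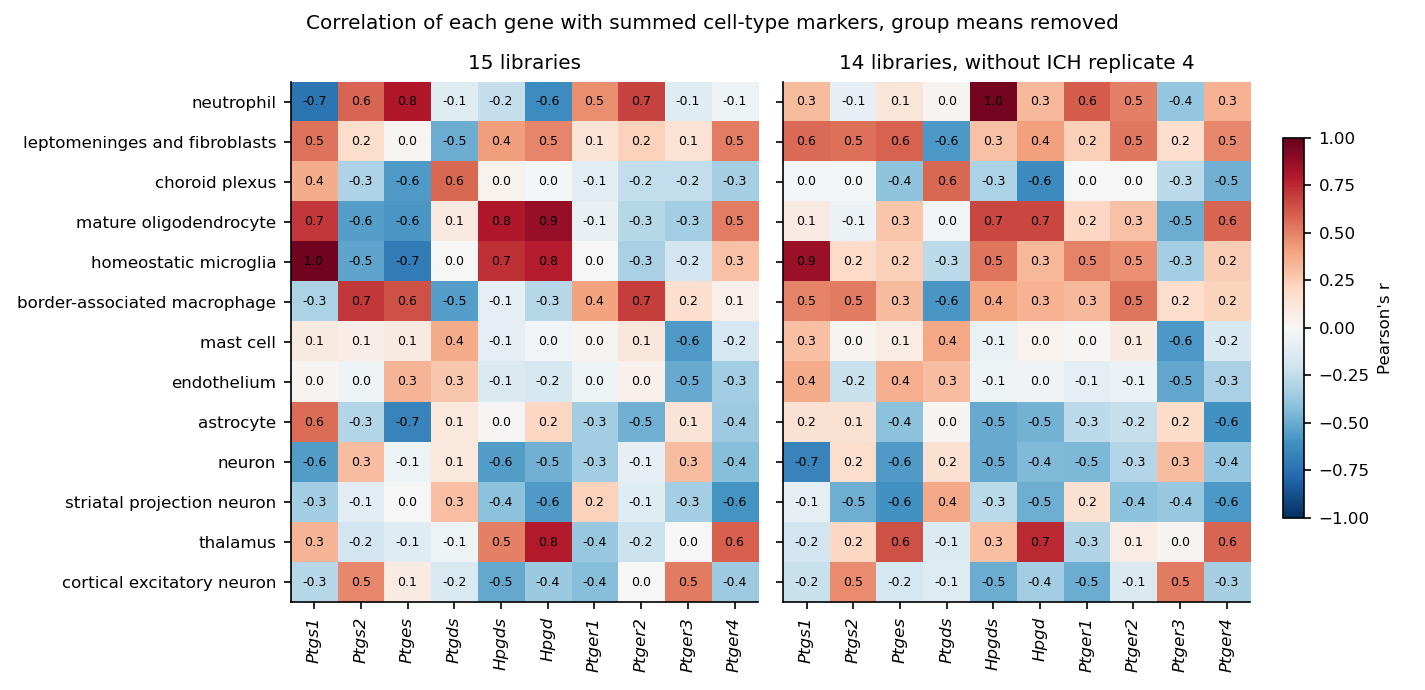
Pearson's r between log2 CPM of each gene and the log2 summed CPM of each marker list after removal of group means, over 15 libraries (left) and over 14 without ICH replicate 4 (right). Ptgs1 correlates with homeostatic microglia markers in both (0.97 and 0.86), while Ptges with neutrophil markers goes from 0.80 to 0.12.

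Upstream of the cyclooxygenases, 1 of 9 tested genes of arachidonate release rose after ICH and 0 fell, close to the 12.4% and 4.58% of all tested genes (median log2 fold change 0.24, against 0.05 over all tested genes). It was Pla2g4a, the cytosolic phospholipase A2 that supplies arachidonate to both cyclooxygenases, which went from 8.50 ± 2.19 to 19.4 ± 6.78 CPM (log2 fold change 1.19 ± 0.25, adjusted p = 0.00374). With NYKD against sham, Pla2g4a (1.59 ± 0.25, adjusted p = 0.000291) and the lysosomal Pla2g15 rose, and the secreted phospholipase gene Pla2g3 fell by 1.53 on the log2 scale. Of all tested genes, 15.3% rose and 8.08% fell in that comparison.

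Of the 7 other prostanoid synthases, 1 rose and 1 fell after ICH, with a median of 0.08, where 12.4% of all genes rose and 4.58% fell. Tbxas1, thromboxane A synthase of platelets and myeloid cells, rose from 7.19 ± 3.16 to 29.4 ± 14 CPM (2.03 ± 0.41, adjusted p = 0.00291). Ptges2, a membrane-associated PGE2 synthase made constitutively, fell from 31.2 ± 4.85 to 22.2 ± 5.02 CPM (-0.49 ± 0.16, adjusted p = 0.0481). That call was lost in 12 of the 15 omissions of a library and with a replicate block (adjusted p = 0.083). The rise of Ptges was thus not shared by this other PGE2 synthase gene, and Ptges3 had no call (0.08 ± 0.23). With NYKD against sham, Tbxas1 and the aldose reductase gene Akr1b3 rose (the latter lost in 7 of 15 omissions), and Fam213b, now named Prxl2b, a prostamide and PGF synthase gene, fell by 0.92. There 15.3% of all genes rose and 8.08% fell.

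Of 5 genes of prostaglandin transport and reduction, 1 rose and 1 fell after ICH, against 12.4% and 4.58% of all genes (median 0.41). The prostaglandin reductase gene Ptgr1, which takes part in inactivation after Hpgd, went from 3.10 ± 1.68 to 10.4 ± 5.58 CPM (1.75 ± 0.41, adjusted p = 0.00808), and the organic anion transporter gene Slco3a1 from 60.0 ± 7.99 to 41.2 ± 11.5 CPM (-0.54 ± 0.17, adjusted p = 0.0377). Slco3a1 lost its call in 6 of 15 omissions, that of ICH replicate 4 among them (-0.41, adjusted p = 0.0591). In NYKD against sham 3 rose and 0 fell, where 15.3% and 8.08% of all genes did. The 3 were Abcc4, an exporter of prostaglandins, Ptgr1 and Ptgr2. In NYKD against ICH, 1 of the 5 rose: Ptgr2, at 39.2 ± 5.45 against 22.9 ± 4.22 CPM (0.77 ± 0.16, adjusted p = 0.0315), where 1.19% of all genes rose. It lost the call with a replicate block (adjusted p = 0.0712) and without ICH replicate 4 or 5 or NYKD replicate 1, 3, 4 or 5 (adjusted p up to 0.0877).

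Of the 5 other prostanoid receptors, 3 were tested and 0 were called after ICH, where 12.4% of all genes rose and 4.58% fell. Their 2 smallest p values there were those of Ptgir, the prostacyclin receptor gene (1.08 ± 0.72, adjusted p = 0.331), and Ptgfr, the PGF2 receptor gene (-0.53 ± 0.43, adjusted p = 0.429). Ptgfr was the 1 member that rose in NYKD against ICH, from 0.486 ± 0.26 to 1.49 ± 0.416 CPM (1.60 ± 0.42, adjusted p = 0.0459), again where 1.19% of all genes rose. This call held in 3 of the 15 omissions of a library (adjusted p up to 0.115) and not with a replicate block (adjusted p = 0.0886). The 2 PGD2 receptor genes Ptgdr and Ptgdr2 were too scarce to test, with at most 0.94 CPM in any library.

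The neighbouring lipoxygenase and leukotriene branch, which uses the same arachidonate, had 2 risers and 0 fallers among 11 tested genes after ICH (median 0.97), against 12.4% and 4.58% of all genes, and 4 risers without ICH replicate 4. The 2 risers with all libraries were Alox5, 5-lipoxygenase, from 1.98 ± 0.749 to 8.27 ± 1.52 CPM (2.06 ± 0.27, adjusted p = 0.00012), and its partner Alox5ap, from 5.08 ± 1.31 to 24.2 ± 3.93 CPM (2.25 ± 0.22, adjusted p = 1.42e-05). With NYKD against sham 4 rose and 0 fell, where 15.3% and 8.08% of all genes did. The 4 were Alox5, Alox5ap and the leukotriene C4 synthase and receptor genes Ltc4s (lost in 6 of 15 omissions) and Cysltr1. None of the 11 was called in NYKD against ICH, where 1.19% of all genes rose and 2.27% fell.

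Of 9 tested inducers of Ptgs2 and Ptges, 8 rose after ICH and 0 fell, with a median of 2.03, where 12.4% and 4.58% of all genes did. Without ICH replicate 4, 6 rose and 1, Egr1, fell. The 8 risers with all libraries were the cytokine genes Il1b, Il1a and Tnf, the receptor genes Il1r1 and Tnfrsf1a, and the transcription factor genes Nfkb1, Cebpb and Cebpd. Il1r1 rose from 12.8 ± 3.43 to 37.4 ± 12.7 CPM, with 26.7 to 57.3 CPM in single ICH libraries (adjusted p = 0.000421). Tnfrsf1a rose from 20.7 ± 7.11 to 84.8 ± 10.4 CPM, with 69.0 to 93.4 CPM in single ICH libraries (adjusted p = 3.59e-05). The means of the cytokine genes were carried by ICH replicate 4. Il1b stood there at 111 CPM against 0.736 ± 0.271 in the other 4 ICH libraries, Tnf at 31.1 against 0.906 ± 0.998, and Il1a at 37.0 against 3.17 ± 0.268. Without that library the log2 fold change of Il1b went from 6.12 to 1.17 (adjusted p = 0.2) and that of Tnf from 4.20 to 1.28 (adjusted p = 0.253), and neither was called. Tnf also lost its call without sham replicate 2, 3, 4 or 5. Il1a went from 3.18 to 1.54 and stayed called (adjusted p = 0.00508), as did Cebpb (1.97 to 1.25) and Nfkb1 (1.06 to 0.71). With NYKD against sham 5 rose and 0 fell, where 15.3% and 8.08% of all genes did. The 5 were Il1r1, Tnfrsf1a, Nfkb1, Cebpb (lost in 6 of 15 omissions) and Cebpd. None of the 9 was called in NYKD against ICH, where 1.19% of all genes rose and 2.27% fell.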

How the data were processed

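The values are whole-number read counts for Ensembl genes as the authors deposited them, unscaled, for each of the 15 mice. Per the submitters' processing notes, the tools were HISAT2 2.0.5 and edgeR 3.22.5 and the build was mm10, with no role stated. No source used here names the counting program, the annotation release or the strand setting. Symbols, coordinates and exon lengths came from GENCODE M21 (GRCm38), and promoter sequences from RefSeq (GRCm38.p6), where 9 of the 10 genes had an entry.

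Genes were filtered with filterByExpr (18052 kept), scaled by TMM and fitted with edgeR 4.0.16 in R 4.3.3 by quasi-likelihood with robust dispersions, 1 coefficient per group over all 15 libraries. Adjusted p values are Benjamini-Hochberg over all tested genes, with calls under 0.05. Standard errors were taken as the size of the log2 change divided by the root of its F statistic. Per-length levels divide CPM by the union of exons. For correlations, log2 CPM had 2 counts added as the prior, and marker sums log2 of CPM plus 1. The fit was also run on simulated counts drawn at the fitted dispersions, and the outcome is not given here. The labels do not say that mice with the same replicate number share a litter or day, and p values measure the spread between mice.

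Alternatives were RLE factors, library totals, no filter, 1 CPM in 5 libraries, DESeq2 1.42.0, limma-voom (limma 3.58.1), 2 groups only, a replicate block, and omission of each library. Members and lists were chosen with earlier results of these data known. All 10 members are named. Of each list, genes called after ICH are named, or else the 2 with the smallest p. Genes called only in a comparison with NYKD, and Ptges3, Ptgdr and Ptgdr2, were named after their values were seen. A result that bears on how Ptger1 was counted is not reported here, and Ptger1 was left out of the receptor pool for it. This pool, the omissions and block for list genes, and the cortical and thalamic markers were also chosen after seeing the data.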

Additional observations from a re-analysis of the deposited data

Results flagged for a closer look

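Among 5 libraries of a group, 1 library stood apart in 8 of 54 checks of levels and shares. Such a check flags about 1 in 20 for independent, normally distributed values. The shares derive from the same levels, so the checks were not independent and that rate cannot be set against their number. In ICH replicate 4, Ptgs2 was at 59.0 CPM against 2.42 to 13.4 in the other ICH libraries. Ptges was at 60.4 CPM against 5.33 to 9.61, and Ptger2 at 4.31 CPM against 0.848 to 1.83. The derived shares followed: Ptgs2 held 76.3% of the cyclooxygenase pool against 6.26% to 22.7%, and Ptger2 held 42.3% of the 4 PGE2 receptors against 15.6% to 20.5%, or 56.9% of Ptger2 to Ptger4 against 19.5% to 29.1%. In sham replicate 3, Ptgs2 was at 1.02 CPM against 3.66 to 4.47, and at 4.98% of the cyclooxygenase pool against 14.4% to 17.1%.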

How the results depend on the processing

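The number of the 10 genes called in ICH against sham was 6, and 3 without a count filter or with limma-voom, and ran from 3 to 7 over omissions of 1 library. Ptgs1, Ptges and Hpgds kept their calls in all of these (DESeq2 gave no p for Ptges). In NYKD against ICH it was 1, and 0 with a replicate block, and ran from 0 to 1; over all genes the count of 625 became 1833 with DESeq2, 387 with limma-voom and 0 with a replicate block (edgeR, with 3602 at an unadjusted p under 0.05), and ran from 0 to 1508 (0 without ICH replicate 5 or NYKD replicate 1, 3 or 5, 1 without ICH replicate 4 and 9 without NYKD replicate 4). In NYKD against sham the count of members ran from 4 to 7 and that of all genes from 2810 (without NYKD replicate 5) to 4784, against 5 and 4225. The cause was not tested. No called change of the 10 genes reversed. Same-numbered mice were not paired by the labels, and their deviations correlated between -0.31 and 0.24. The block made no other change to the members' calls than for Ptger4 (0.87, adjusted p = 0.0861) and Ptger3 after ICH (-1.17, adjusted p = 0.0448), Ptger3 in NYKD against ICH (2.05, adjusted p = 0.0712) and Ptgs2 in NYKD against sham (1.73, adjusted p = 0.0478). Of all calls after ICH, 73.0% were raised with TMM, 83.4% with library totals, 64.2% with RLE factors, 60.6% with DESeq2 and 69.2% with limma-voom. In NYKD against ICH these were 34.4%, 20.1%, 41.3%, 44.1% and 47.5%. Receptors, with at most 116 counts in a library, are limited by depth.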
